A study of Mus musculus with 18 samples.

Results

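The genes described here encode the machinery that closes the DNA breaks of V(D)J recombination in pro-B cells. They are the 9 genes Xrcc5, Xrcc6, Prkdc, Dclre1c, Lig4, Xrcc4, Nhej1, Polm and Poll, taken by name from a table of 24072 genes. With them go the binding sites that the deposited annotation assigns to these genes, which were 12 of 14377 sites. Pro-B cells were grown from fetal liver of C57BL6/J mice in 3 genotypes: wild type (WT), Ebf1 knock out (Ebf1-/-, here Ebf1-KO) and Pax5 knock out (Pax5-/-, here Pax5-KO). All cultures stood on OP9 stromal cells, a mouse marrow stroma line, with interleukin-7, FLT3 ligand and KIT ligand, each at 10 ng/ml. RNA and accessible chromatin (ATAC, which reads where a transposase can enter) were sequenced in 9 libraries each, 3 per genotype. The labels do not say how the knockout alleles were made, how old the fetuses were or whether animals were pooled. Nothing says that the libraries of a genotype came from separate cultures or animals, so p-values measure only the spread between these libraries, which may be technical.

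In developing lymphocytes the RAG recombinase cuts DNA beside antigen receptor gene segments, and the broken ends are rejoined by classical non-homologous end joining. KU70 and KU80, encoded by Xrcc6 and Xrcc5, form a ring that slips over each end and recruits the kinase DNA-PKcs, encoded by Prkdc. DNA-PKcs activates Artemis (Dclre1c), the nuclease that opens the hairpins left on coding ends. Polymerases mu (Polm) and lambda (Poll) fill gaps, and ligase IV (Lig4) with its partners XRCC4 and XLF (Nhej1) seals the strands. EBF1 and PAX5 are transcription factors of the B lineage, and Rag1 and Rag2 are expressed during its early stages.

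RNA values are reads over exons per 10 M (mega) mapped reads, rescaled between libraries by TMM, which equalizes the bulk of genes. The rescaling was used because exons held 47.0 to 71.4% of mapped reads. RNA libraries held 27.3 to 89.1 M mapped reads and ATAC libraries 15.3 to 38.6 M tags. The 9 pro-B markers summed to 27832 to 32963 in WT, against 3200 to 3626 in Ebf1-KO and 8192 to 9939 in Pax5-KO. Ebf1-KO libraries also held more RNA of innate lymphoid genes (905 to 1045 over 6 markers, against 7.49 to 9.45 in WT and 64.6 to 101.9 in Pax5-KO), of myeloid genes (1038 to 1135 over 6 markers, against 8.28 to 22.2 in WT and 182 to 197 in Pax5-KO) and of T cell genes (325 to 362 over 6 markers, against 3.81 to 5.45 in WT and 13.2 to 15.5 in Pax5-KO). Not every myeloid marker followed its sum. Tyrobp (764), Itgam (171) and Mpo (158) were the high ones in Ebf1-KO. Lyz2 was lower there than in WT (1.79 against 5.16), and Csf1r stood at 3.11 against 1.41. Erythroid markers summed to at most 35.6 and hepatocyte markers to at most 1.49 in any library. Stroma markers summed to 7.24 to 237, highest in the library numbered 2 of each genotype, and Dcn was at 0 in all 9. Xist stood at 34690 to 46116 in Ebf1-KO and at 1.55 to 48.4 in the other 6 libraries, and the Y-linked Ddx3y was at or below 2.58 only in Ebf1-KO, so sex and genotype cannot be told apart there. None of the 9 genes lies on a sex chromosome. Ebf1 RNA was 4525 ± 268 in WT, against 1338 ± 34.9 in Ebf1-KO and 1435 ± 71.9 in Pax5-KO (SD, n = 3 here and below). Pax5 RNA was 1740 ± 73.4, 11.9 ± 3.45 and 103 ± 5.94, and exon counts do not show which part of either gene was deleted. In bulk samples, fewer cells of a type and less RNA per cell cannot be told apart, and the part that other cell types play in the results below was not tested.

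The sequences below are intron sites of Lig4, Xrcc4 and Polm, the genes with the largest falls in RNA, and make up 4 of the 7 bound sites assigned to these genes. The accessibility of each is given further on. They are read 5′ to 3′ on the forward strand of GRCm38.p6, the build of the files, while the genes lie on the reverse strand. EBF1 binds a palindrome, here TCCCNNGGGA, and capitals mark stretches of the EBF1-bound sites that hold at least 6 of its 8 fixed letters. At least 6 letters were found in 96.7% of the 7810 EBF1-only sites that could be scanned, and in 77.8% of 32851 mouse promoters of 300 bases. The full palindrome was present in 27.2% of EBF1-only sites, 14.1% of shared sites, 0.775% of PAX5-only sites and 0.904% of promoters. It was in none of the 12 sites of end-joining genes, of which 4 are EBF1-only, 3 shared and 5 PAX5-only. The closest matches among the 12, with 7 of 8 letters, were in the EBF1-only sites of Xrcc4 and Xrcc6 and in the PAX5-only site of the first Polm exon, which are not printed. At least 7 letters were found in 69.7% of all EBF1-only sites and 11.5% of all PAX5-only sites.
Lig4 intron, EBF1-only, chr8:9975291-9975561: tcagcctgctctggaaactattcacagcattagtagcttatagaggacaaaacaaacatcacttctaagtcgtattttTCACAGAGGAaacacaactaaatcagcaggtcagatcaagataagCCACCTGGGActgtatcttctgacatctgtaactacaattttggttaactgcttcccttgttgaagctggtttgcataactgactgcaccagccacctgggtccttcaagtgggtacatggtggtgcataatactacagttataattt
Polm intron 1, first 300 bases of the shared site, chr11:5837190-5837489: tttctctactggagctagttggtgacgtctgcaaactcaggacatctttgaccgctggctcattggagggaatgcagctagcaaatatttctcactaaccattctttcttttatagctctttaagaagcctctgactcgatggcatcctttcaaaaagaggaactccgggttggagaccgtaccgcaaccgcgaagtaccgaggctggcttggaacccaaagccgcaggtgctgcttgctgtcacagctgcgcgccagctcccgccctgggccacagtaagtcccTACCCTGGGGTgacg
Xrcc4 intron 3, PAX5-only, chr13:90056901-90057149: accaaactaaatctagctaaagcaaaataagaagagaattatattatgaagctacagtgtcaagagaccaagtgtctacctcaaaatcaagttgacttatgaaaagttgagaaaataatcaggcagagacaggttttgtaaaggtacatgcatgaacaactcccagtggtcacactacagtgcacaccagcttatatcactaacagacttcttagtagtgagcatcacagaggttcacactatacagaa
Xrcc4 intron 3, PAX5-only, chr13:90057708-90057956: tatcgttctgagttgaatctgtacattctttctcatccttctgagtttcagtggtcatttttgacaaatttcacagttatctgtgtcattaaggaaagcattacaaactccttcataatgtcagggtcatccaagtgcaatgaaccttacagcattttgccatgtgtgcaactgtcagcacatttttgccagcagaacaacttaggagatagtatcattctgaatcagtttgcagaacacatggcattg
The Lig4 site holds a pair of such stretches, TCACAGAGGA and CCACCTGGGA, with 6 matching letters each. The printed 300 bases of the Polm site hold 2 that overlap, TACCCTGGGG and ACCCTGGGGT, and the rest of that site was not marked. The Xrcc4 sites were searched on both strands for GCNTGAC, a stretch of PAX5 binding sites, and held none. That stretch was present in 21.2% of 5033 PAX5-only sites, 9.32% of EBF1-only sites and 10.7% of promoters.

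Against WT, 6 of the 9 genes were called lower in Ebf1-KO and 1 higher, and 5 were called lower in Pax5-KO and 3 higher. A call means a Benjamini-Hochberg adjusted p under 0.05 in limma over 12839 genes. Of all genes tested, 28.1% were lower and 30% higher in Ebf1-KO, and 24.0% were lower and 25.9% higher in Pax5-KO. The median log2 difference of the 9 genes came to -0.44 in Ebf1-KO and -0.31 in Pax5-KO, beside -0.01 and 0.02 over all genes. With the authors' scaling, which raises the median gene by 0.31 and 0.28, 3 were lower and 2 higher in Ebf1-KO (all genes: 14.4% and 40.8%), and 4 lower and 3 higher in Pax5-KO (11.9% and 34.7%). Both knockouts are set against the same WT libraries. Between the knockouts, Ebf1-KO was lower than Pax5-KO for 3 genes and higher for 2, beside 19.6% and 20.5% of all genes.

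**Figure D1:**
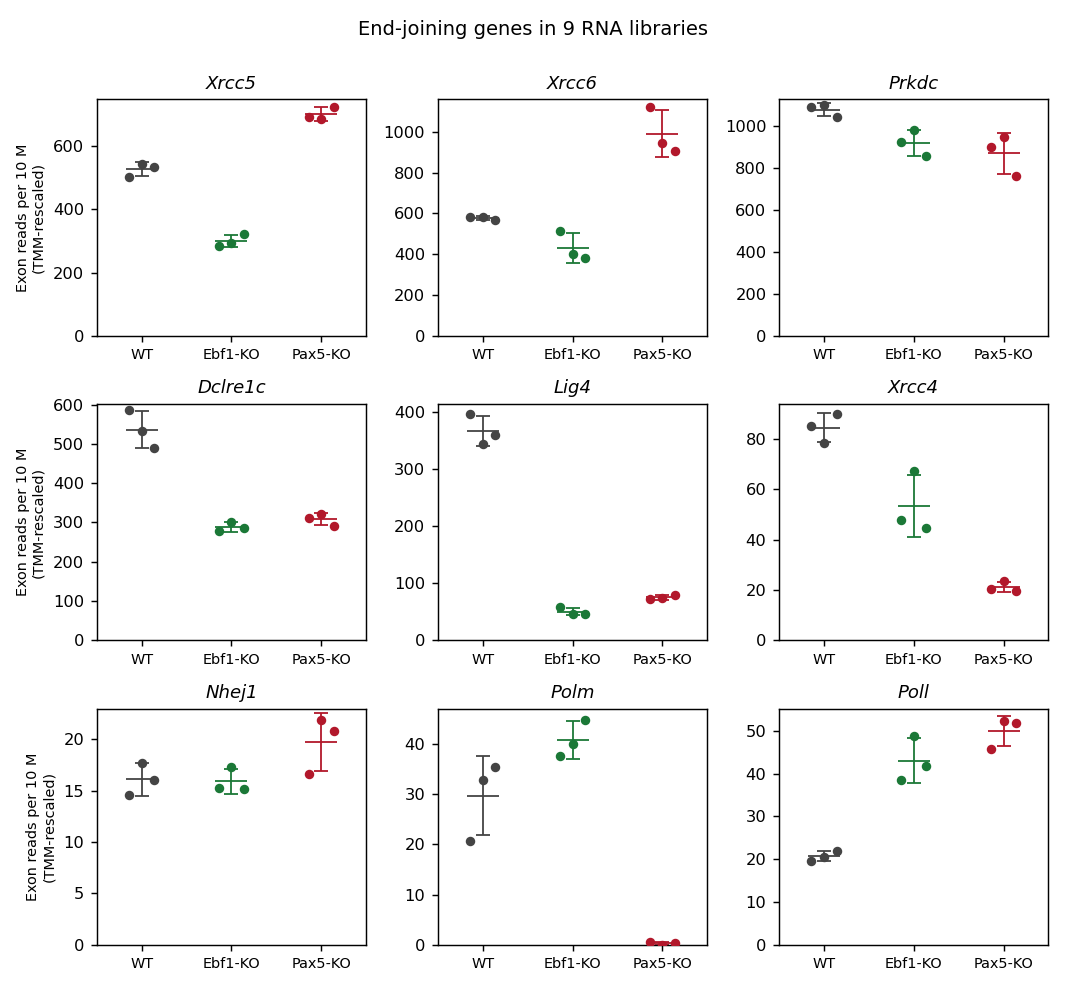
RNA of the 9 end-joining genes in 9 libraries, as TMM-rescaled exon reads per 10 M on axes that start at 0. Points are libraries in the order of their numbers, and bars are the mean and SD of 3. Lig4 stood at 344 to 396 in WT and at or below 80.1 in every knockout library, while Polm was at or below 0.604 in Pax5-KO alone.

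The genes spanned a wide range of RNA abundance. Per kilobase of transcript, which allows genes to be compared, the order in WT was Xrcc6 (276 ± 4.34), Xrcc5 (208 ± 8.57), Dclre1c (133 ± 11.9), Lig4 (89.9 ± 6.53), Prkdc (85.7 ± 2.48), Xrcc4 (55.0 ± 3.81), Nhej1 (19.2 ± 1.91), Polm (10.2 ± 2.69) and Poll (8.92 ± 0.524). Lig4 and Prkdc, and Polm and Poll, were within their spread of each other. In Ebf1-KO ligase IV moved most in this order. Lig4 was last there, at 12.4 ± 1.60 per kilobase, next to Polm at 13.99 ± 1.27, with which it overlapped in spread. Above both stood Xrcc4 (34.7 ± 8.08), Nhej1 (18.9 ± 1.46) and Poll (18.5 ± 2.27), of which Nhej1 and Poll were within their spread of each other. In Pax5-KO it stood at 18.5 ± 1.07 per kilobase, below Nhej1 (23.6 ± 3.35) and Poll (21.5 ± 1.53) and above Xrcc4 (13.8 ± 1.31) and Polm (0.112 ± 0.105). The Ku genes stayed at the top in every genotype, with Xrcc6 at 205 ± 34.4 and Xrcc5 at 118 ± 7.71 per kilobase in Ebf1-KO, and at 473 ± 54.4 and 277 ± 8.51 in Pax5-KO. Prkdc (73.1 ± 4.87 and 69.2 ± 7.71) and Dclre1c (71.4 ± 3.03 and 76.2 ± 3.75) were within their spread of each other in Ebf1-KO and in Pax5-KO.

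The Ku genes, whose products bind the broken ends, were lower in Ebf1-KO and higher in Pax5-KO, with Xrcc6 in Ebf1-KO not called with the authors' scaling. Xrcc5 (mm10 chr1:72307421-72394953) stood at 503, 544 and 535 in WT, at 285, 293 and 322 in Ebf1-KO and at 693, 685 and 726 in Pax5-KO. No library of a genotype overlapped those of another. Its log2 difference from WT was -0.81 (SE 0.077, adjusted p = 1.54e-06) in Ebf1-KO and 0.41 (SE 0.077, adjusted p = 0.000707) in Pax5-KO. Xrcc6 (chr15:82016369-82040084) stood at 585, 582 and 568 in WT, at 513, 400 and 379 in Ebf1-KO, and at 1121, 947 and 906 in Pax5-KO, again with no overlap. The differences were -0.44 (SE 0.115, adjusted p = 0.00597) and 0.77 (SE 0.115, adjusted p = 0.000121). The direct comparison gave -1.22 for Xrcc5 (adjusted p = 6.37e-08) and -1.21 for Xrcc6 (adjusted p = 2.88e-06), Ebf1-KO being the lower. The fall of Xrcc6 in Ebf1-KO did not pass with the authors' scaling (-0.11, adjusted p = 0.528), nor without the libraries numbered 2 (adjusted p = 0.114). Xrcc6 shares 344 exon bases with Desi1 on the opposite strand, and no source used here says whether the counting used strand, so reads there cannot be told apart. Spread evenly over the Desi1 transcript, its reads would put 47.4 into that stretch in WT, with 69.3 in Ebf1-KO and 71.8 in Pax5-KO.

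Prkdc and Dclre1c, which encode the kinase and nuclease of hairpin opening, were lower in both knockouts, but Prkdc not with the authors' scaling. Dclre1c (chr2:3424131-3461116) stood at 586, 534 and 490 in WT, at 277, 302 and 287 in Ebf1-KO and at 312, 320 and 291 in Pax5-KO. All WT libraries lay above all knockout libraries, and the knockouts overlapped. The differences from WT were -0.89 (SE 0.087, adjusted p = 2.12e-06) and -0.80 (SE 0.087, adjusted p = 8.41e-06), and that between the knockouts was -0.09 (95% interval -0.28 to 0.10, adjusted p = 0.437). Dclre1c shares 357 exon bases with Suv39h2 on the opposite strand, which under an even spread would hold 32.3 to 39.5 reads of that gene in the means of the 3 genotypes. Prkdc (chr16:15637866-15842239) changed least among the called genes. It stood at 1093, 1099 and 1043 in WT, at 923, 979 and 857 in Ebf1-KO and at 900, 950 and 763 in Pax5-KO. WT libraries lay above the others, but the differences were -0.23 (SE 0.090, adjusted p = 0.043) and -0.31 (SE 0.090, adjusted p = 0.0116). On the authors' scale neither passed: Ebf1-KO was the higher by 0.10 (adjusted p = 0.53) and Pax5-KO the lower by a log2 difference of -0.04 (adjusted p = 0.804). Neither passed without the libraries numbered 2 (adjusted p = 0.144 and 0.0613). The fall in Ebf1-KO also failed the threshold without WT 1, WT 2, WT 3, Ebf1-KO 1 or Ebf1-KO 3, with adjusted p from 0.0636 to 0.156.

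Lig4, the ligase that no other enzyme replaces in this pathway, showed the strongest fall common to both knockouts. Lig4 (chr8:9970020-9976323) stood at 396, 344 and 359 in WT, at 57.9, 46.7 and 46.5 in Ebf1-KO and at 71.5, 74.5 and 80.1 in Pax5-KO. All WT libraries lay far above the knockout libraries, and all Pax5-KO libraries above those of Ebf1-KO. The log2 difference from WT was -2.84 (SE 0.118, adjusted p = 6.62e-10) in Ebf1-KO and -2.27 (SE 0.118, adjusted p = 9.19e-09) in Pax5-KO. Ebf1-KO was lower than Pax5-KO by a log2 difference of -0.58 (adjusted p = 0.00175), which did not pass without the libraries numbered 2 (-0.54, adjusted p = 0.0507). In the authors' deposited table, which lists transcripts past a log2 change of 1, Lig4 stands at -2.85 for Ebf1-KO and -2.25 for Pax5-KO. A start of Lig4 lies 21 bases from that of Abhd13, which runs the other way. Abhd13 stood at 347 ± 40.1 in WT, with 337 ± 12.2 in Ebf1-KO and 290 ± 23.5 in Pax5-KO, with log2 differences of -0.04 (adjusted p = 0.785) and -0.25 (adjusted p = 0.0551).

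Of the partners of ligase IV, Xrcc4 fell in both knockouts and more in Pax5-KO, and Nhej1 was called in neither. Xrcc4 (chr13:89848914-90089608) stabilizes the ligase. It stood at 85.1, 78.5 and 90.2 in WT, at 47.8, 67.5 and 44.6 in Ebf1-KO and at 20.2, 23.5 and 19.8 in Pax5-KO. The genotypes did not overlap, and Ebf1-KO lay between the others. The differences from WT were -0.68 (SE 0.169, adjusted p = 0.00435) in Ebf1-KO, not called with the authors' scaling (-0.35, adjusted p = 0.143), and -1.95 (SE 0.169, adjusted p = 1.01e-06) in Pax5-KO. Ebf1-KO was higher than Pax5-KO by 1.27 (adjusted p = 5.6e-05). The neighbour Tmem167 starts 485 bases away on the other strand, and shares 112 exon bases with Xrcc4. Tmem167 stood at 944 ± 76.3 in WT, with 794 ± 51.8 in Ebf1-KO and 413 ± 51.1 in Pax5-KO. There it fell by 1.20 on the log2 scale (adjusted p = 7.28e-07). Under an even spread the shared bases would hold 9.79, 8.23 and 4.28 reads of Tmem167 in the 3 genotypes, beside Xrcc4 means of 84.6, 53.3 and 21.2. Nhej1 (chr1:74967346-75046639), whose product XLF bridges the ends with XRCC4, stood at 14.5, 17.8 and 16.1 in WT, at 15.2, 17.3 and 15.2 in Ebf1-KO and at 16.6, 21.9 and 20.8 in Pax5-KO. The genotypes overlapped. Its differences from WT were -0.02 (95% interval -0.40 to 0.37, adjusted p = 0.945) and 0.27 (interval -0.11 to 0.66, adjusted p = 0.218).

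Of the gap-filling polymerases, Polm separated the knockouts most and Poll rose in both. Polm (chr11:5827860-5838016) stood at 20.7, 32.7 and 35.5 in WT, at 37.5, 39.96 and 44.8 in Ebf1-KO, and at 0.604, 0 and 0.373 in Pax5-KO. It was near 0 in Pax5-KO alone. The 3 Pax5-KO libraries held 6 Polm reads in all, against 354 in WT and 565 in Ebf1-KO. Divided by the TMM-rescaled depth of the libraries, summed reads were 90.0-fold lower in Pax5-KO than in WT (95% exact Poisson interval 40.9 to 247, counting error only). On the log2(value + 1) scale, which understates this, the difference was -4.52 (SE 0.247, adjusted p = 1.39e-08), and the authors' deposited table lists -6.31. In Ebf1-KO all 3 libraries lay above WT, but the difference of 0.48 (SE 0.247) was not called (adjusted p = 0.119). It was called with the authors' scaling (0.79, adjusted p = 0.0284) and with a pseudocount of 5 (0.42, adjusted p = 0.0489). Ebf1-KO exceeded Pax5-KO by 4.999 (SE 0.247, adjusted p = 7.93e-09). Poll (chr19:45552276-45560543) was the only 1 of the 9 genes called higher in both knockouts. It stood at 19.6, 20.5 and 22.04 in WT, at 38.5, 48.8 and 41.7 in Ebf1-KO and at 45.9, 52.2 and 51.8 in Pax5-KO. The WT libraries lay below all others, and the knockouts overlapped. The differences were 1.01 (SE 0.147, adjusted p = 7.46e-05) and 1.23 (SE 0.147, adjusted p = 1.92e-05).

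**Figure D2:**
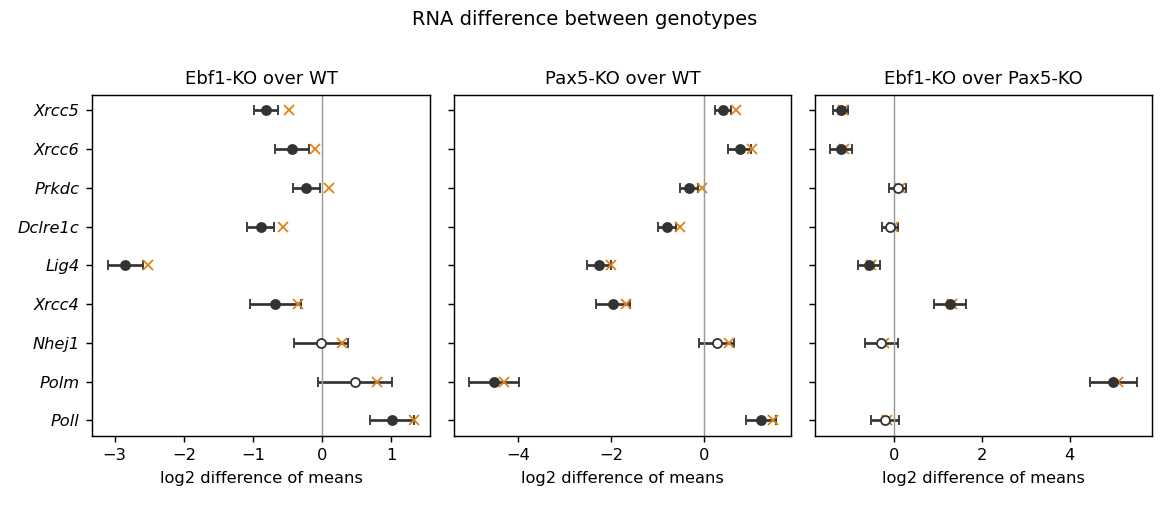
Log2 difference of RNA for the 9 genes in 3 comparisons, with different horizontal scales. Circles and bars are the estimate and its 95% interval after TMM rescaling, filled where called, and crosses are the estimates with the authors' scaling. Lig4 fell in both knockouts (-2.84 and -2.27), Xrcc5 and Xrcc6 were lower in Ebf1-KO and higher in Pax5-KO, and Polm fell in Pax5-KO alone (-4.52).

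The genes with a pattern most like that of Polm over the 9 libraries were Bhlhe41 (Pearson r = 0.998), Stk39 (r = 0.996), Capn2 (r = 0.993), Mtus2 (r = 0.992) and Cdh17 (r = 0.990), chosen as the highest r among all genes tested. These r describe 9 libraries that fall into 3 genotypes and carry no test. Bhlhe41 averaged 109 in WT, with 141 in Ebf1-KO and 1.48 in Pax5-KO. Mtus2 averaged 34.7, 66.9 and 0.124.

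The X family of polymerases, to which Polm and Poll belong, also holds Dntt, the terminal transferase that adds untemplated bases at V(D)J joints, and Polb, the main polymerase of base excision repair. Dntt fell from 136 ± 18.6 in WT to 4.39 ± 1.14 in Ebf1-KO (log2 -4.68, adjusted p = 1.95e-09) and to 0.919 ± 0.294 in Pax5-KO (-6.16, adjusted p = 3.5e-10). Polb stood at 93.8 ± 8.84 in WT, with 83.6 ± 9.24 in Ebf1-KO and 83.1 ± 5.78 in Pax5-KO, with adjusted p of 0.287 and 0.288. Of the other ligases, Lig1, which joins fragments at replication forks, fell from 1823 to 810 in Ebf1-KO (-1.17, adjusted p = 1.68e-08) and to 1107 in Pax5-KO (-0.72, adjusted p = 2.58e-06). Lig3, the ligase of mitochondria and of alternative end joining, rose from 694 to 849 (0.29, adjusted p = 0.016) and to 912 (0.40, adjusted p = 0.00302). Lig4 was the only one of the 3 ligases with a difference over 2 in size on the log2 scale.

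All 5 genes of the recombinase list (Rag1, Rag2, Dntt, Hmgb1 and Hmgb2) were lower in both knockouts, with a median of -1.19 in Ebf1-KO and -1.27 in Pax5-KO. With the authors' scaling 4 and 5 were. Rag1, the catalytic subunit, fell from 1735 ± 966 in WT to 185 ± 37.1 in Ebf1-KO (-3.11, adjusted p = 8.49e-07) and 654 ± 44.4 in Pax5-KO (-1.27, adjusted p = 0.00208). Rag2, its partner, fell from 801 ± 307 to 418 ± 16.3 (-0.87, adjusted p = 0.00898; not called with the authors' scaling, adjusted p = 0.0854) and to 136 ± 46.6 (-2.54, adjusted p = 2.84e-06). The recombinase subunits thus stood in opposite order in the knockouts: Ebf1-KO was below Pax5-KO for Rag1 (-1.83, adjusted p = 0.000161) and above it for Rag2 (1.66, adjusted p = 0.000141). Hmgb1 and Hmgb2, DNA-bending cofactors of RAG, fell by 0.97 to 1.19 on the log2 scale in both knockouts.

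Of 9 accessory end-joining genes found (Cyren was not matched), 3 rose and 3 fell in Ebf1-KO, and 1 rose and 3 fell in Pax5-KO. On the authors' scale 4 and 2 rose and none fell. Paxx (listed as BC029214), a paralog of XRCC4, rose in Ebf1-KO from 14.4 to 27.9 (0.94, adjusted p = 0.00167), and Setmar rose in both knockouts (0.81 and 0.91, adjusted p = 0.00163 and 0.000885). Tdp1, which clears blocked ends, was lower in both (-0.86 and -0.66), but not with the authors' scaling.

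Of 16 genes of the break response, 3 rose and 4 fell in each knockout, and the median was -0.08 and -0.01. On the authors' scale 4 rose in each, and 1 fell in Ebf1-KO and none in Pax5-KO. Dclre1a, the SNM1A nuclease and a relative of Artemis, rose from 9.94 ± 1.06 in WT to 159 ± 15.5 in Ebf1-KO (3.87, adjusted p = 1.66e-10) and 70.2 ± 3.95 in Pax5-KO (2.71, adjusted p = 7.53e-09). H2afx, the histone marked at breaks, fell (-0.94 and -0.80, adjusted p = 0.000371 and 0.00156), but in Pax5-KO not with the authors' scaling. Paxip1, an adaptor of this response, was lower in both (-0.54 and -0.51, adjusted p = 0.000123 and 0.000247), but not with the authors' scaling. Atm, the kinase that responds to breaks, fell in Ebf1-KO after TMM rescaling (-0.36, adjusted p = 0.00466, against -0.03 with the authors' scaling). In Pax5-KO Atm was called higher with the authors' scaling (0.48, adjusted p = 0.0078) but not after TMM rescaling.

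Of 8 alternative end-joining genes, 1 rose and 4 fell in Ebf1-KO, and 2 rose and 4 fell in Pax5-KO. With the authors' scaling 1 rose and 2 fell, and 3 rose and 3 fell. Parp1, the break sensor of that pathway, rose from 3085 in WT to 9078 in Pax5-KO (1.56, adjusted p = 2.45e-09) and stood at 2961 in Ebf1-KO (-0.06, adjusted p = 0.484). Xrcc1, the scaffold of Lig3, fell in both (-1.19 and -1.07, adjusted p = 1.59e-06 and 6.01e-06). Polq, the polymerase of this route, fell in both (-0.56 and -0.66, adjusted p = 0.00142 and 0.000501), but in Ebf1-KO not with the authors' scaling.

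Of 16 homologous recombination genes, 10 fell and 3 rose in Ebf1-KO, and 8 fell and 2 rose in Pax5-KO. With the authors' scaling only 1 fell in each, and 3 and 2 rose. Rad51d and Xrcc2 rose in both knockouts: Rad51d by 1.20 and 1.31 (adjusted p = 5.58e-07 and 3.56e-07) and Xrcc2 by 1.47 and 0.73 (adjusted p = 1.79e-06 and 0.000941). Brip1, a helicase, fell in both (-0.78 and -0.50), but in Pax5-KO not with the authors' scaling. Rad54b fell by 0.83 on the log2 scale in Pax5-KO (adjusted p = 0.0002). Rad51c was lower in both knockouts (-0.68 and -0.90, adjusted p = 0.00739 and 0.00155), but not with the authors' scaling. Proliferation genes moved with the knockouts too: 10 of 10 fell in Ebf1-KO and 8 of 10 in Pax5-KO, with medians of -0.64 and -0.54. With the authors' scaling 4 fell in each. Mki67 went from 28360 in WT to 13083 and 12834, and Rrm2 fell by 1.15 and 1.31 on the log2 scale. Their part in the falls of the end-joining genes was not tested.

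Between the knockouts, Ebf1-KO was called higher for 0 of 9 accessory genes, 2 of 16 break response genes, 0 of 8 alternative end-joining genes, 3 of 16 homologous recombination genes and 1 of 10 proliferation genes. It was called lower for 0, 3, 3, 3 and 2 of these. Of all genes, 20.5% were higher and 19.6% lower. On the authors' scale the counts were 0, 2, 0, 3 and 0 higher and 0, 1, 1, 0 and 0 lower, beside 17.5% and 13.3% of all genes.

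**Figure D3:**
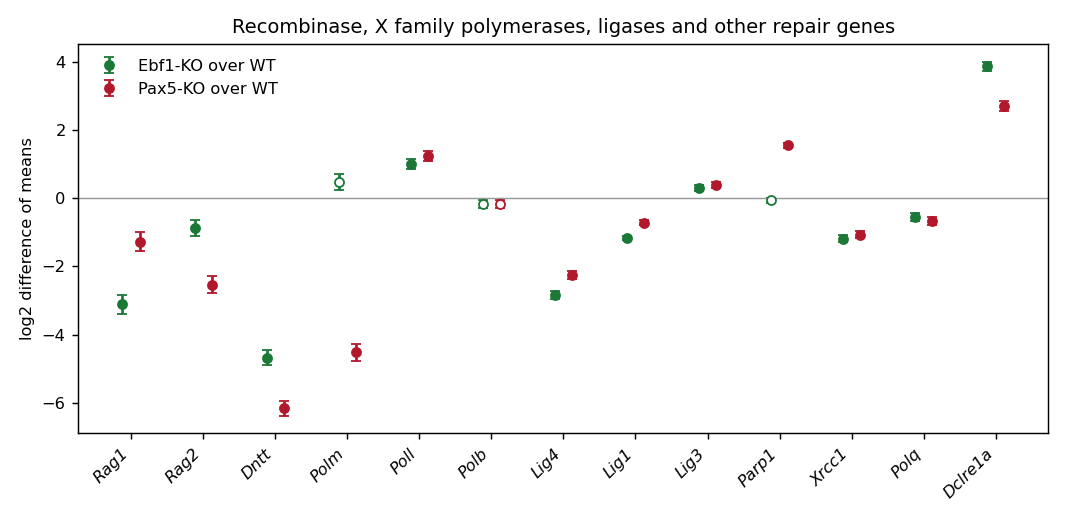
Log2 difference from WT of RNA for recombinase, polymerase, ligase and other repair genes, including the members Polm, Poll and Lig4. Points are estimates after TMM rescaling with their SE, filled where called, for Ebf1-KO and Pax5-KO. Parp1 rose in Pax5-KO (1.56) and Dclre1a in both knockouts (3.87 and 2.71), while Rag1 and Rag2 stand in opposite order.

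Binding sites were assigned to 6 of the 9 genes: Xrcc6, Prkdc, Lig4, Xrcc4, Polm and Poll. None was assigned to Xrcc5, Dclre1c or Nhej1. Of the 12 sites, 4 were bound by EBF1 only, 5 by PAX5 only and 3 by both, per the authors' site lists. ATAC values are the authors' tags per 10 M at each site. In Ebf1-KO 9 of 12 sites were lower than in WT and 0 higher, and in Pax5-KO 9 of 12 were lower and 0 higher. Over 14365 sites tested, 51.1% were lower and 3.28% higher in Ebf1-KO, and 51.5% were lower and 2.11% higher in Pax5-KO. The median log2 difference over all sites was -0.78 and -0.75. TMM rescaling, which removes this shift, left 4 lower and 1 higher in Ebf1-KO and 5 lower and 1 higher in Pax5-KO. The lower ones were the Lig4 site and the PAX5-only sites of Xrcc4 in both knockouts, the distant Poll site in Ebf1-KO and the PAX5-only sites of Polm in Pax5-KO. The higher ones were the Prkdc site in Ebf1-KO (0.99, adjusted p = 6.67e-05) and the EBF1-only site of Xrcc6 in Pax5-KO (0.65, adjusted p = 0.0243). All other calls against WT given below were lost with it. Of the 14365 sites, TMM rescaling left 4273 lower and 2923 higher in Ebf1-KO, and 3055 lower and 1979 higher in Pax5-KO. The sites held 1.52 to 2.31% of tags in WT and 0.825 to 1.11% in the knockouts, and whether this reflects the chromatin or the libraries was not tested. Between the knockouts 1 site was higher in Ebf1-KO and 0 lower, beside 9.06% and 12.6% of all sites.

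The largest losses were at Lig4 and Xrcc4, at the sites printed above. The Lig4 intron site lies 897 bases inside the gene from its annotated start. It held 55.5, 25.9 and 35.7 tags per 10 M in WT, 1.95, 3.63 and 4.16 in Ebf1-KO, with 3.53, 2.12 and 4.34 in Pax5-KO. All WT libraries lay above the others, and the knockouts overlapped. The log2 difference was -3.21 (SE 0.300, adjusted p = 2.2e-16) in Ebf1-KO and -3.18 (SE 0.300, adjusted p = 6.99e-16) in Pax5-KO, beside medians of -0.64 and -0.55 over all EBF1-only sites.

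The PAX5-only sites of Xrcc4 lie in its intron 3, 32583 and 31776 bases from the start. The farther one held 15.03, 9.97 and 14.2 in WT, 0, 0 and 0.96 in Ebf1-KO, with 0, 0.27 and 1.30 in Pax5-KO (-3.47 and -3.28, adjusted p = 4.69e-13 and 7.41e-12). The nearer one held 13.1, 7.98 and 12.7 in WT, at most 0.78 in Ebf1-KO and at most 0.87 in Pax5-KO (-2.95 and -2.94, adjusted p = 6.51e-11 and 1.19e-10). These sites were near 0 in both knockouts, with 3 to 5 tags per genotype and site, whereas Xrcc4 RNA averaged 53.3 in Ebf1-KO and 21.2 in Pax5-KO. The median over all PAX5-only sites was -0.84 and -1.03. The EBF1-only site assigned to Xrcc4 lies 577 bases inside the gene, in the stretch annotated as the promoter of another transcript on the side where Tmem167 starts. It fell from 14.4 ± 3.43 in WT to 7.20 ± 1.57 and 6.16 ± 1.95 (-0.91 and -1.12, adjusted p = 0.00548 and 0.000652). The medians were -0.64 and -0.55 over all EBF1-only sites, and -0.78 and -0.75 over all sites.

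**Figure D4:**
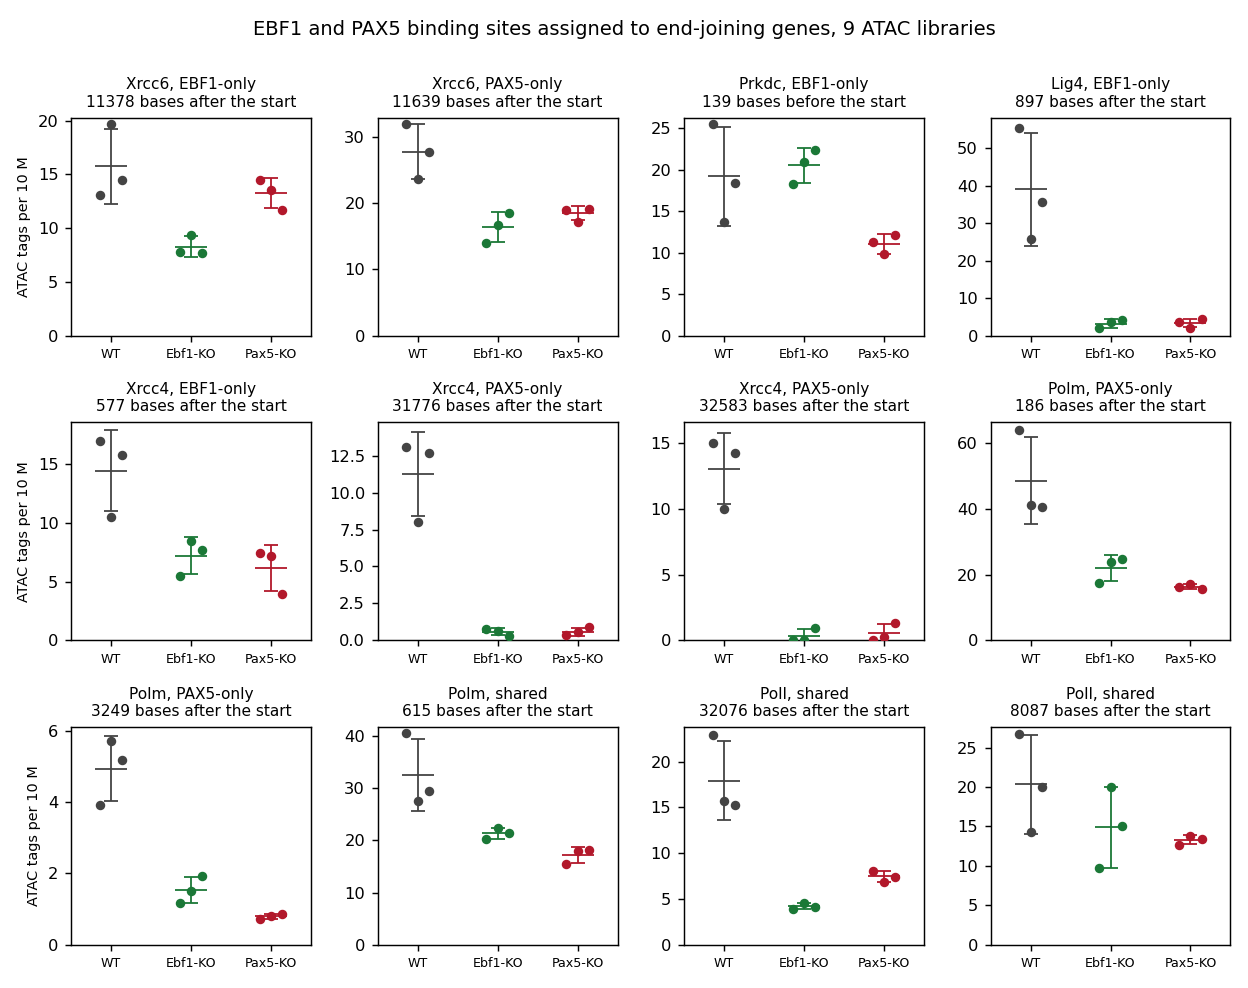
ATAC tags per 10 M at the 12 sites assigned to end-joining genes, in 9 libraries on axes that start at 0. Points are libraries in the order of their numbers and bars are the mean and SD of 3. The Lig4 site and the PAX5-only sites of Xrcc4 stood near 0 in both knockouts, and the Prkdc promoter site at 18.3 to 22.4 in Ebf1-KO and 9.81 to 12.2 in Pax5-KO.

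At Polm, 3 sites were bound. The PAX5-only site in the first exon held 64.0, 41.3 and 40.7 in WT, 17.5, 23.9 and 24.7 in Ebf1-KO, with 16.2, 17.2 and 15.6 in Pax5-KO (-1.09 and -1.48, adjusted p = 0.000214 and 1.06e-06). The shared site in intron 1 held 40.5, 27.6 and 29.5 in WT, 20.3, 22.4 and 21.5 in Ebf1-KO, with 15.5, 18.02 and 18.2 in Pax5-KO (-0.57 and -0.86, adjusted p = 0.0563 and 0.0034), and without WT 2 Ebf1-KO passed too (adjusted p = 0.0199). The PAX5-only site in exon 5 held 4.93 ± 0.915 in WT, with 1.53 ± 0.376 in Ebf1-KO against 0.793 ± 0.0802 in Pax5-KO (-1.23 and -1.72, adjusted p = 0.00355 and 6.11e-05). Over all PAX5-only sites the medians (Ebf1-KO first) were -0.84 and -1.03, with 52.4% and 61.0% of sites called lower. Over all shared sites they were -1.70 and -1.28, with 76.4% and 76.5% called lower. Beside these medians the PAX5-only sites of Polm fell more and its shared site fell less. WT lay above both knockouts at all 3 sites, and Ebf1-KO above Pax5-KO. That last difference was called at none of them (0.39, 0.29 and 0.49, adjusted p = 0.309, 0.467 and 0.388), while Polm RNA differed by 4.999 between the same genotypes. The intervals of these differences reach 0.91, 0.81 and 1.23.

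At Poll, whose RNA rose in both knockouts, the accessibility of the assigned sites did not. The shared site 32076 bases away, in the intron of a neighbouring transcript, fell from 17.9 ± 4.27 to 4.20 ± 0.327 in Ebf1-KO and to 7.46 ± 0.614 in Pax5-KO (-1.84 and -1.14, adjusted p = 2.34e-08 and 0.000407). The median over all shared sites was -1.70 and -1.28. The site at the end of the gene held 20.3 ± 6.28 in WT, with 14.9 ± 5.12 in Ebf1-KO against 13.3 ± 0.556 in Pax5-KO (-0.43 and -0.53, adjusted p = 0.174 and 0.0883). Without WT 2 both differences passed (adjusted p = 0.0323 and 0.0128). Without WT 1 they shrank to -0.22 and -0.32, and without Ebf1-KO 1 the difference in Ebf1-KO shrank to -0.17.

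At Xrcc6, a pair of neighbouring sites lies in intron 7. The EBF1-only site fell in Ebf1-KO from 15.7 ± 3.47 to 8.28 ± 0.951 (-0.84, adjusted p = 0.00573), and stood at 13.2 ± 1.39 in Pax5-KO (-0.22, adjusted p = 0.509). The PAX5-only site held 27.8 ± 4.18, 16.4 ± 2.28 and 18.5 ± 1.07 (-0.72 and -0.56, adjusted p = 0.0133 and 0.0616). Leaving out Ebf1-KO 1 ended the first of these calls (adjusted p = 0.0713), and leaving out WT 2 brought Pax5-KO past the threshold (adjusted p = 0.0224). At Prkdc, the EBF1-only site 139 bases before the start held 25.5, 13.7 and 18.4 in WT, 18.3, 20.9 and 22.4 in Ebf1-KO, with 11.3, 9.81 and 12.2 in Pax5-KO. It was lower in Pax5-KO than in WT (-0.70, adjusted p = 0.0198) and not called in Ebf1-KO (0.13, adjusted p = 0.704), and EBF1 is the factor listed as bound there. It was the only site of the 12 called between the knockouts (0.83, adjusted p = 0.0146), a call lost without Pax5-KO 2, Ebf1-KO 2 or Ebf1-KO 3 (adjusted p = 0.0574 to 0.0836). Its fall in Pax5-KO was lost without WT 1, WT 3 or Pax5-KO 2 (adjusted p = 0.0516 to 0.143). Mcm4 starts 466 bases from Prkdc on the other strand. Mcm4 RNA stood at 2441 ± 35.3 in WT, with 2139 ± 51.1 in Ebf1-KO and 2340 ± 62.8 in Pax5-KO. Its log2 differences were -0.19 (adjusted p = 0.0203, or 0.419 with the authors' scaling) and -0.06 (adjusted p = 0.445).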

How the data were processed

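RNA and ATAC were measured in 9 libraries each, grouped by the genotype in their titles. The RNA column taken as WT 2 is headed PWT2 and was matched to that title by its WT2 ending alone, so the WT 2 RNA values rest on this match. The submitters' processing notes name TopHat, HOMER, edgeR and DESeq2 for RNA and Bowtie2 and HOMER for ATAC, on mm10 (GRCm38), with no versions. Per the file headers, the RNA signal holds reads over exons, condensed by HOMER to 1 transcript per gene and scaled to 10 M mapped reads, and the ATAC signal deposited by the authors holds tags per 10 M per site. The score of each site, the assigned gene and the distance to its start were deposited by the authors from HOMER. Adjusted p-values and log2 fold changes per transcript were deposited by the authors for the changes from WT. Another 36 columns of per-sample values that match no sample of the series were not used.

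Divided by the value of 1 read, 99.9 to 100% of RNA values and 100% of ATAC values were whole within 0.1 reads, so reads were recovered for filtering, TMM and count tests. RNA values were rescaled by TMM (factors 0.832 to 1.30). Both tables were tested with limma (trend, two-sided) on log2(value + 1), with a mean per genotype over 9 libraries, for 12839 genes that passed edgeR's filterByExpr and 14365 sites with at least 10 tags. All 9 end-joining genes and 12 sites passed. Fold changes on this scale understate those of low genes. The members, related lists, marker lists and rules for named genes (all members, all their sites, and at most 4 called genes of largest change per list and comparison) were chosen with earlier results of these data known. RNA libraries with the same number deviated together: the correlations of deviations were 0.12 to 0.42 in 9 of 9 pairs, and -0.35 to 0.03 for other pairs. By this the numbers pair the RNA libraries, as a pattern in the data, since the labels do not say what a number stands for. Alternatives were other pseudocounts, filters, scalings, edgeR, DESeq2, only the groups compared, the replicate number as a block, and leaving out libraries. The method was also run on simulated data in which far fewer genes or sites changed than were called here. The simulated ATAC libraries had equal totals over the sites, unlike these libraries, so no conclusion is drawn from that run. Promoter sequences and the genome are RefSeq's for GRCm38.p6: 7 of the 9 genes matched a promoter, and Prkdc and Poll did not. The tools were limma 3.58.1, DESeq2 1.42.0 and edgeR 4.0.16 in R 4.3.3, with matplotlib 3.10.9 in Python 3.11.15.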

Additional observations from a re-analysis of the deposited data

How the results depend on the processing

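For RNA, 111 of 114 counts of called genes stayed within 1.5 times of the reported count over all alternatives. In Ebf1-KO, 2 genes were higher with a pseudocount of 5, and 2 were higher and 3 lower with the authors' scaling. Of all genes, 3842 were higher with a pseudocount of 5, beside 3851 with a pseudocount of 1. The cause was not tested. Leaving out the 3 libraries numbered 2, an alternative chosen after seeing the data, gave 4 lower and 1 higher in Ebf1-KO, 4 lower and 3 higher in Pax5-KO, and 2 lower and 2 higher between the knockouts. Calls over all genes fell as well, to 2616 lower and 3170 higher in Ebf1-KO, from 3609 and 3851 with all libraries. In Pax5-KO they went from 3075 and 3324 to 2101 and 2575, and between the knockouts from 2522 and 2629 to 1717 and 1825. The single RNA differences that turned sign were Prkdc in Ebf1-KO (to 0.10 with the authors' scaling), Prkdc between the knockouts (to -0.011 without Pax5-KO 3) and Nhej1 in Ebf1-KO (to 0.29 with the authors' scaling and 0.012 without the libraries numbered 2). Leaving out 1 library gave -0.085 to 0.051 for Nhej1 in Ebf1-KO and -0.011 to 0.14 for Prkdc between the knockouts. Prkdc in Ebf1-KO also missed the threshold with no filter (adjusted p = 0.0552), quantile normalization (0.143) and DESeq2 (0.0682). With the replicate number as a block, paired RNA counts were 6 lower and 1 higher, 5 lower and 3 higher, and 3 lower and 2 higher, and no call of the 9 genes changed. Over all genes the block gave 4109 lower and 4213 higher in Ebf1-KO and 3564 lower and 3813 higher in Pax5-KO. Between the knockouts it gave 3087 lower and 3103 higher.

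For ATAC, TMM rescaling gave 4 lower and 1 higher in Ebf1-KO, 5 lower and 1 higher in Pax5-KO, and 2 lower and 1 higher in Ebf1-KO against Pax5-KO. Over all sites, TMM rescaling gave 2225 lower and 1852 higher in Ebf1-KO against Pax5-KO. It turned the Polm intron site (0.30 and 0.042), the Poll site at the end of the gene (0.42 and 0.35) and the Xrcc6 PAX5-only site (0.14 and 0.34) positive in Ebf1-KO and Pax5-KO, and in Pax5-KO also the Xrcc6 EBF1-only site (0.65) and the Prkdc site (0.18). Between the knockouts, leaving out a library gave 0 to 1 sites higher (0 without Ebf1-KO 2, Ebf1-KO 3 or Pax5-KO 2) and 0 to 1 lower (1 without WT 2, the distant Poll site). Differences that were not called changed sign when a library was left out. They ranged from -0.078 to 0.35 for the Prkdc site in Ebf1-KO against WT. Between the knockouts they ranged from -0.25 to 0.21 for the Lig4 site (0.052 with edgeR), from -0.034 to 0.38, -0.52 to 0.15 and -0.12 to 0.12 for the EBF1-only and both PAX5-only sites of Xrcc4, and from -0.13 to 0.36 for the Poll site at the end of the gene. ATAC libraries share only a number: same-number deviations correlated at -0.05 to 0.11, and 4 of 9 libraries were closest to their own number. A replicate block left 9 lower and 0 higher in each knockout and 1 higher between them. Over all sites this block gave 7351 lower and 467 higher in Ebf1-KO and 7393 lower and 303 higher in Pax5-KO. Between the knockouts it gave 1858 lower and 1278 higher. Depth limits Polm in Pax5-KO (6 reads) and the Xrcc4 intron sites (3 to 5 tags per knockout). It also limits the Polm exon 5 site, with 14 tags in Ebf1-KO and 7 in Pax5-KO.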
